A study of Mus musculus with 6 samples.

Results

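The AP-1 and Egr immediate early genes were followed through 10 genes, namely Fos, Fosb, Fosl2, Jun, Junb, Jund, Egr1, Egr2, Egr3 and Atf3, in sorted adult mouse hematopoietic stem cells (HSCs). The symbols were chosen with earlier results of these data known. All probe sets of the array table whose only annotated gene symbol was one of these were taken, which gave 15 probe sets of 45037 tested, and 10 genes of 18193 with a named probe set. RNA came from HSCs of mice homozygous for a PU.1 knock-in allele (PU.1 ki/ki, 3 arrays) and of wild-type mice (WT, 3 arrays), sorted in both groups by a gate for CD150-positive, CD48-negative cells within the lineage-negative fraction positive for Sca1 and cKit. All mice were adults, and no agent is named for either group. PU.1, encoded by Spi1, is an ETS transcription factor of blood development, and the series is concerned with its autoregulation and with the proliferation of adult HSCs. The labels do not say which sequence the knock-in allele changes, whether an array holds 1 mouse or a pool, or whether replicates are separate animals, so the p-values cover no more than the spread from array to array, part or all of which may be technical.

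Immediate early genes are transcribed within minutes of a signal, without new protein synthesis, from promoters held ready by serum response factor with its ETS partners and by CREB. Fos and Jun family proteins pair through leucine zippers to form AP-1, which binds TGAGTCA, and Egr proteins are zinc finger factors that bind GC-rich sites such as GCGTGGGCG. In HSCs, Egr1 is known for restraining division and for keeping the cells in the niche, and Junb for limiting their proliferation. The same genes are also known to be induced while a tissue is dissociated and sorted.

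Promoter sequences are shown for 5 of the 6 members in which a searched motif was found (Atf3 is the other). Immediate early genes are set apart by how quickly their promoters respond to a signal. The sequences are those of RefSeq on GRCm38.p6. A window from 250 bases before to 50 bases after a transcript start was held for 8 of the 10 genes, with 5 starts for Egr2. Egr1 and Egr3 had no window and were not searched. Both strands were searched for the CArG box (the site of serum response factor, CC, then 6 of A or T, then GG), TGACGTCA, TGAGTCA, GCGTGGGCG, GCGGGGGCG and GAGGAAGT (an ETS and PU.1 site). Matches of these were found in 3 genes. The letters TGACGTTT, TGACATCA and TGACGT (part of TGACGTCA, the CREB site, so that any full site also holds it) were added after the first search. In the first 3 lines the 120 bases before the start are given, and in the next 2 lines 30 bases around the match, with the match in capitals in the lines of Jun, Fosl2, Fosb and Egr2, and TGACGT in capitals in that of Fos.
Fos, chr12:85473770-85473889, plus strand: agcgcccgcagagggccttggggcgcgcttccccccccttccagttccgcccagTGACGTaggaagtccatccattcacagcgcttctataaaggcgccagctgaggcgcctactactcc
Jun, chr4:95052223-95052342, minus strand: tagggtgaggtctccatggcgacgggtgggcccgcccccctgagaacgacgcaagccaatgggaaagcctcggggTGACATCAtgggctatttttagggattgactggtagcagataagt
Fosl2, chr5:32136352-32136471, plus strand: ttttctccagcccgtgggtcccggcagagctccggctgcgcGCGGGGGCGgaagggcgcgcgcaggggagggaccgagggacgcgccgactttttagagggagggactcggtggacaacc
Fosb, chr7:19310076-19310105, minus strand: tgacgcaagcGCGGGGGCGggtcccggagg
Egr2, chr10:67537787-67537816, plus strand: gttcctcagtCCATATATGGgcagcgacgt
A CArG box was found in the windows of Egr2, in 4 of its 5 starts, and in 1.63% of all 32851 RefSeq windows of this length. Several of these Egr2 windows overlap and hold the same box, the one shown, so they are not separate sites. GCGGGGGCG was found in Fosl2, at 79 bases before the start, and in Fosb, at 50 bases before it, and in 2.91% of all windows. TGACATCA was found in Jun, at 45 bases before the start (3.62% of all windows), and TGACGT in Fos, Egr2 and Atf3 (7.51%). No member window held TGACGTCA (1.79% of all), TGAGTCA (5.2%), GCGTGGGCG (0.612%), GAGGAAGT (3.2%) or TGACGTTT (0.39%), nor did those of Junb and Jund hold any motif searched. A match describes the letters in these windows only, and sites outside them were not searched.

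The values are array intensities on a linear scale with a minimum of 10, and each difference is the log2 value in PU.1 ki/ki minus that in WT, after 1 was added to every intensity. The WT arrays stood further apart from each other than the PU.1 ki/ki arrays did. Pearson correlations of log2 intensity ranged over 0.940 to 0.951 for pairs of PU.1 ki/ki arrays, against 0.831 to 0.858 for pairs of WT arrays. Of probe sets whose median on the other 5 arrays was at least 500, the share that lay at least 4-fold lower was 0.117 to 0.215% for PU.1 ki/ki arrays, against 1.2% for WT replicate 1, 11.5% for WT replicate 2 and 11.3% for WT replicate 3. Gapdh control probe sets, whose 3'-over-5' ratio is a sign of RNA or labelling quality, gave ratios of 2.98 to 4.75 for PU.1 ki/ki arrays, against 3.36, 6.11 and 6.68 for WT replicates 1, 2 and 3. Values of WT replicates 2 and 3 are therefore given singly for the brightest probe set of each member. Spi1 itself read 170, 212 and 161 in PU.1 ki/ki and 158, 195 and 199 in WT HSCs, so the groups overlapped.

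No AP-1 or Egr probe set passed the test of PU.1 ki/ki against WT HSCs, and the spread between arrays was large beside the differences. Of 15 probe sets, 0 had an adjusted p under 0.05 (limma with Benjamini-Hochberg adjustment over 45037 probe sets, of which 0% passed), with the lowest adjusted p at 0.6431. At an unadjusted p under 0.05 there were also 0, where 8.28% of all probe sets lay, and in 0 of the 15 did the 3 values of one group lie apart from those of the other, against 12.1% of all probe sets. With 15 probe sets, counts of 0 cannot be set apart from these shares. Of the 10 genes, each read by its brightest probe set, 3 had a positive and 7 a negative difference, and the median was -0.21, against 0.01 over all 18193 genes. Within the WT group, by contrast, Fos, Egr1 and Jund were spread over 22.0-fold, 8-fold and 6.69-fold. In RNA of sorted cells, fewer cells that express a gene and less of its RNA per cell cannot be told apart.

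**Figure D1:**
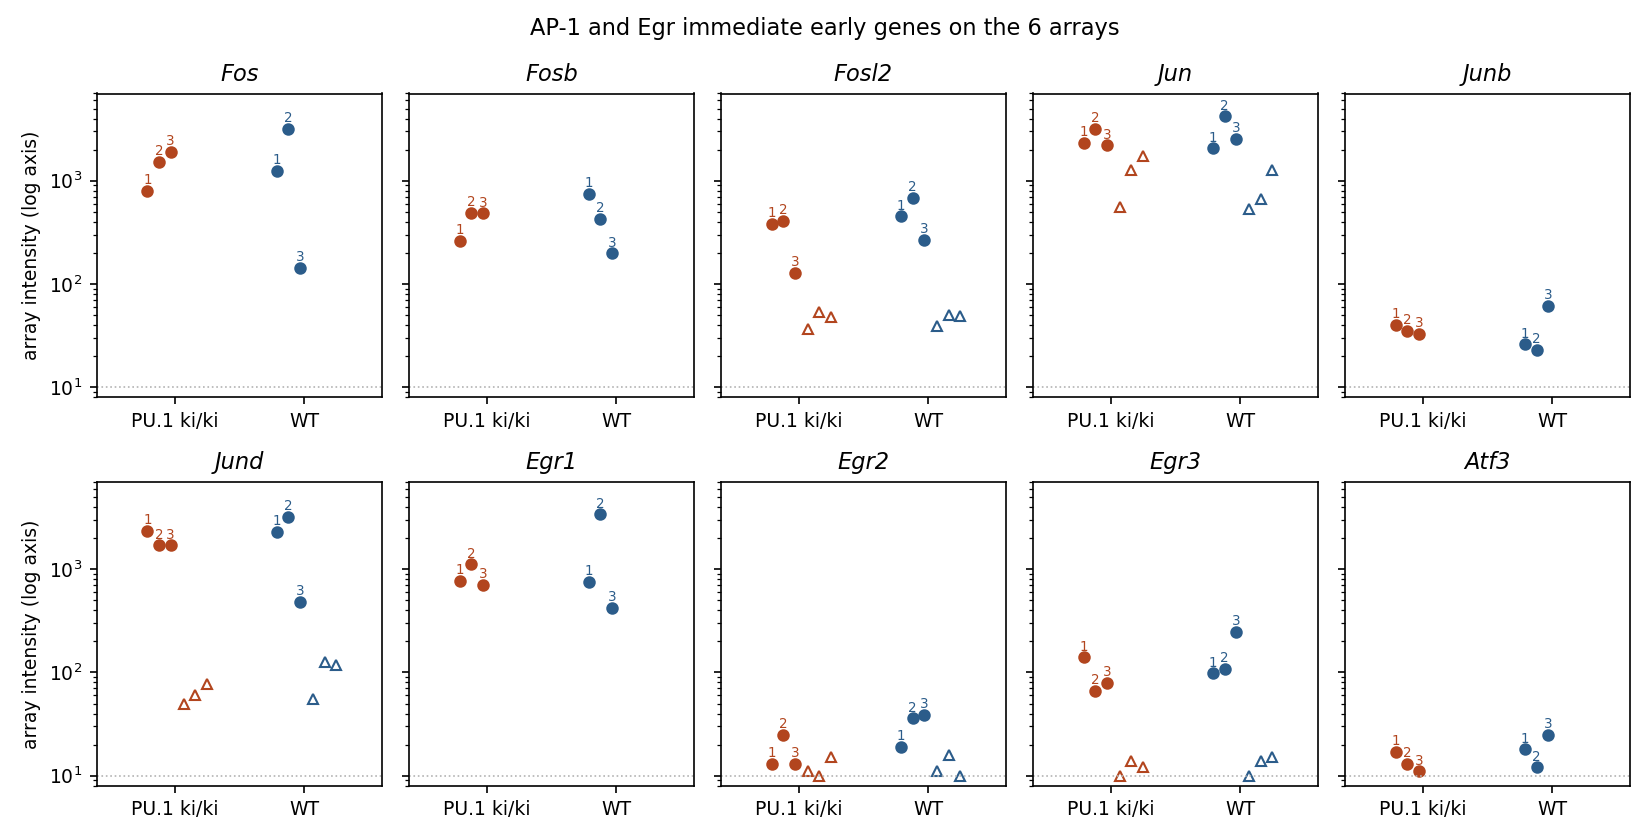
Array intensity (log axis) of the 10 genes on each array, with PU.1 ki/ki in red at left and WT in blue at right. Filled circles, numbered by replicate, are the brightest probe set of a gene, open triangles its second probe set, and the dotted line the table's minimum of 10. By the brightest probe set, Fos, Fosb, Jun, Junb, Jund and Egr1 have both their highest and their lowest array in the WT group.

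Fos, the AP-1 subunit most widely used as a sign of recent stimulation, read 799, 1528 and 1899 in PU.1 ki/ki HSCs and 1255, 3171 and 144 on WT replicates 1, 2 and 3. The WT arrays thus held the highest and the lowest of the 6 values, with the third in the middle of the PU.1 ki/ki range. The mean was 1409 ± 560 in PU.1 ki/ki and 1523 ± 1531 in WT HSCs (SD, n = 3 each), and on the log2 scale the difference was 0.67 ± 1.22 (SE, 95% interval -2.45 to 3.79, limma adjusted p = 0.893). The sign of the log2 difference is opposite to that of the mean intensities because of the 144 on WT replicate 3. Without that array the difference was -0.59, and without WT replicate 2 it was 1.63. The interval therefore reaches from a lower level to a more than 10-fold higher one, and the data do not settle a direction for Fos.

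Fosb, a Fos relative induced with it, read 261, 491 and 483 in PU.1 ki/ki and 751, 426 and 198 in WT HSCs. Again the WT arrays lay on both sides, here with replicate 1 the highest. The difference was -0.01 ± 0.57 (SE, limma adjusted p = 1), with -0.51 without WT replicate 3 and 0.44 without WT replicate 1. Fosl2, which encodes Fra-2, a Fos relative that lacks a strong activation domain, read 384, 408 and 129 in PU.1 ki/ki and 451, 683 and 269 in WT HSCs on its brightest probe set. Of the 6, the low value was on PU.1 ki/ki replicate 3. The difference was -0.68 ± 0.60 (adjusted p = 0.768), and -0.14 without that array. Its second probe set was dim and even, at 37 to 53 in PU.1 ki/ki and 39 to 50 in WT, with a difference of -0.01.

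Jun, which pairs with Fos and drives its own promoter, was read by a pair of probe sets that did not give the same picture. The brightest read 2328, 3179 and 2195 in PU.1 ki/ki and 2061, 4208 and 2557 in WT HSCs. All 6 arrays lay within a 2.04-fold range, and the highest was WT replicate 2. The difference was -0.15 ± 0.32 (adjusted p = 0.917), with 0.14 without WT replicate 2. The other probe set read 552, 1263 and 1730 in PU.1 ki/ki and 537, 667 and 1284 in WT, a difference of 0.46 ± 0.56 (adjusted p = 0.822). There WT replicate 2 was not high, and the mean of both probe sets gave a difference of 0.16. The array of highest Jun signal thus depended on the probe set.

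Junb, a Jun relative that antagonises Jun in cell cycle control, read 40, 35 and 33 in PU.1 ki/ki and 26, 23 and 61 in WT HSCs. Its probe set was dim on every array, and the PU.1 ki/ki values lay between the lower and the highest WT values. The difference was 0.11 ± 0.40 (adjusted p = 0.961), and it was -0.15 without WT replicate 2 and -0.00022 when each array was centred on its median. Jund, the Jun relative that is expressed without stimulation, read 2364, 1707 and 1699 in PU.1 ki/ki and 2295, 3213 and 480 in WT HSCs. The low value on WT replicate 3 set the sign of its difference of 0.32 ± 0.77 (adjusted p = 0.931), which was -0.52 without that array. Its dimmer probe set was not low on that array. It read 50, 60 and 77 in PU.1 ki/ki and 55, 127 and 118 in WT, a difference of -0.60 ± 0.39 (adjusted p = 0.696).

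Egr1 read 772, 1117 and 711 in PU.1 ki/ki HSCs and 759, 3394 and 424 on WT replicates 1, 2 and 3. The PU.1 ki/ki values and WT replicate 1 lay close together, with WT replicate 2 far above them and replicate 3 below. The mean was 867 ± 219 in PU.1 ki/ki and 1526 ± 1627 in WT (SD, n = 3 each), and the log2 difference was -0.28 ± 0.82 (SE, 95% interval -2.37 to 1.82, limma adjusted p = 0.943). Without WT replicate 2 it was 0.58, and without WT replicate 3 it was -0.92. With a single probe set for Egr1, no other reading of the transcript was at hand.

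Egr2, best known in Schwann cells and lymphocytes, was close to the minimum. Its brighter probe set read 13, 25 and 13 in PU.1 ki/ki and 19, 36 and 39 in WT HSCs, and the other 11, 10 and 15 against 11, 16 and 10. The difference of the first, -0.85 ± 0.40, had the lowest p of the 15 probe sets (unadjusted 0.0865, limma adjusted p = 0.643), and its sign stayed negative with any single array left out (-1.16 to -0.66). At such intensities its size is uncertain, and the other probe set differed by -0.03. Egr3, a relative induced by antigen and growth signals, read 140, 66 and 79 in PU.1 ki/ki and 98, 108 and 246 in WT. The highest value was again on a WT array, this time replicate 3, and the difference was -0.61 ± 0.48 (adjusted p = 0.742). Its second probe set was at 10 to 14 in PU.1 ki/ki and 10 to 15 in WT. Atf3, a stress-induced partner of Jun, read 17, 13 and 11 in PU.1 ki/ki and 18, 12 and 25 in WT, a difference of -0.36 ± 0.32 (adjusted p = 0.764). Of the 15 probe sets 6 were at 100 or below on all arrays.

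Exact permutation tests, taken as two-sided over the 20 regroupings of the arrays, gave p of 0.2 to 1 for the 15 probe sets, where 3 arrays against 3 cannot go below 0.1. The intervals remain wide. That of Jun excluded a difference above 0.68 or below -0.98 for the brightest probe set, while those of Fos, Egr1 and Jund included a 3-fold change either way.

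**Figure D2:**
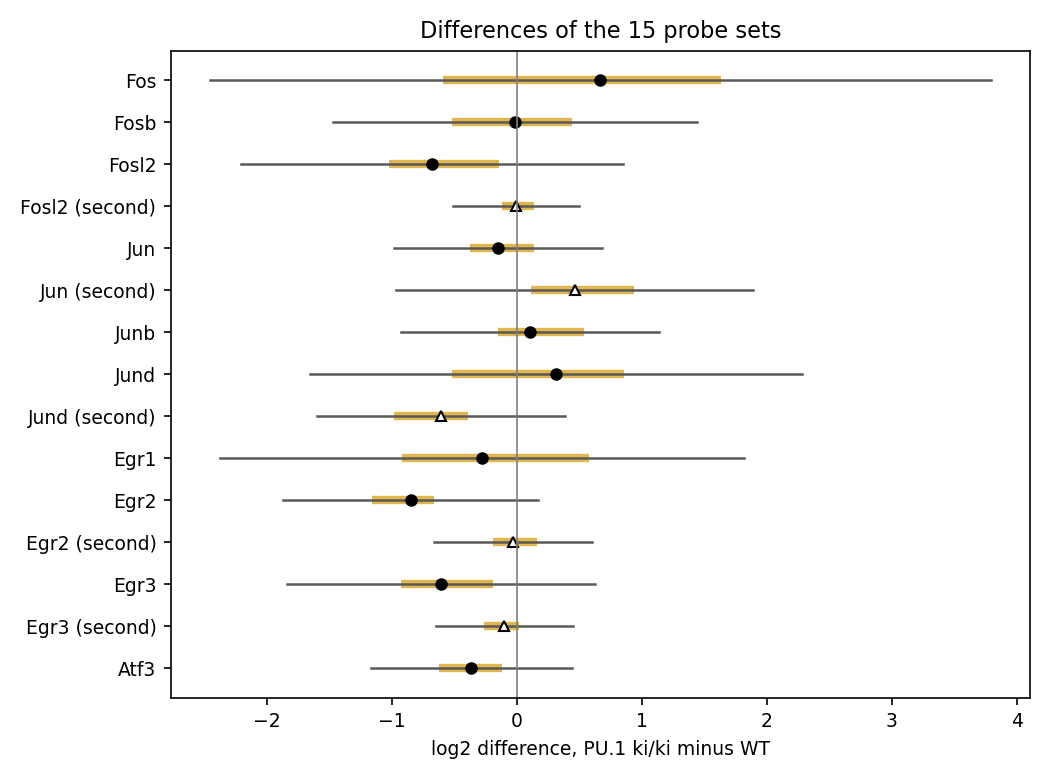
Log2 difference of PU.1 ki/ki minus WT for the 15 probe sets (circles, brightest probe set; triangles, second probe set), with the 95% interval of the limma fit (grey line) and the range of the difference when single arrays were left out (yellow bar). All 15 intervals include 0, and they are widest for Fos, Egr1 and Jund.

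The members did not vary together as one group across arrays. Relative to the mean of the PU.1 ki/ki arrays on the log2 scale, WT replicate 2 was higher for Egr1 (2.0), Fosl2 (1.32), Fos (1.26), Egr2 (1.10), Jund (0.76) and Jun (0.73). On the same array Junb (-0.62) and Atf3 (-0.15) were lower. WT replicate 3 was lower for Fos (-3.19), Jund (-1.98), Egr1 (-1.0) and Fosb (-0.99) and higher for Egr3 (1.44), Egr2 (1.22), Atf3 (0.85) and Junb (0.75). Of these last, Egr2, Atf3 and Junb were dim, while the 4 lower ones were bright on the other arrays. WT replicate 1, the WT array most like the PU.1 ki/ki arrays, differed from their mean by -0.45 to 0.92 over the 10 genes, with Fos at -0.08 and Egr1 at -0.16.

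**Figure D3:**
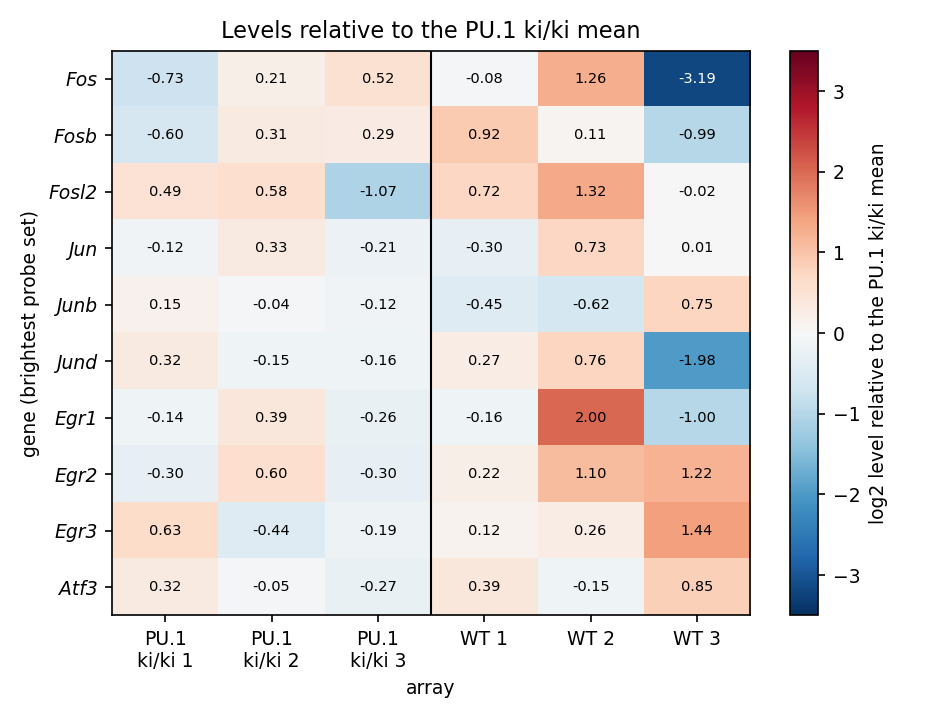
Log2 level of each gene's brightest probe set on each array, relative to the mean of the 3 PU.1 ki/ki arrays (colour and printed value). WT replicate 2 is highest for Egr1, at 2.0, and WT replicate 3 is lowest for Fos, at -3.19.

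Among the 7 members with a mean intensity of at least 100, WT replicate 2 was the highest array for 5 and WT replicate 3 the lowest for 4. For 3 of them, Fos, Egr1 and Jund, both held. Over the 8625 genes with such a mean, 20.5% were highest on WT replicate 2, 29.4% lowest on replicate 3, and 6.54% both. These shares are a description, since the arrays were singled out after their values were seen. On both arrays many bright probe sets were low and the Gapdh ratio was high, as given above, and the part of these in the members' values was not tested. Egr1 and Fos were at their highest on replicate 2 and at their lowest on replicate 3.

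The spread within the groups was measured as the SD of log2 intensity, beside the median SD of all probe sets in the same of 10 equal classes by mean level. It was larger in WT than in PU.1 ki/ki for 9 of the 10 genes, the exception being Fosl2. The median SD of each gene's class was also larger in WT than in PU.1 ki/ki. For Fos it was 0.65 in PU.1 ki/ki and 2.28 in WT, where probe sets of like level had medians of 0.28 and 0.55. For Egr1 it was 0.35 in PU.1 ki/ki and 1.55 in WT, and for Jund 0.27 and 1.46, beside the same medians. Jun, with 0.29 in PU.1 ki/ki and 0.53 in WT, lay at these medians. Of all probe sets in that class, 2.31% had a WT SD at least as large as that of Fos, 8.68% as that of Egr1 and 9.99% as that of Jund. For the other members, each in its own class, this share was 34.7 to 58.5%.

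**Figure D4:**
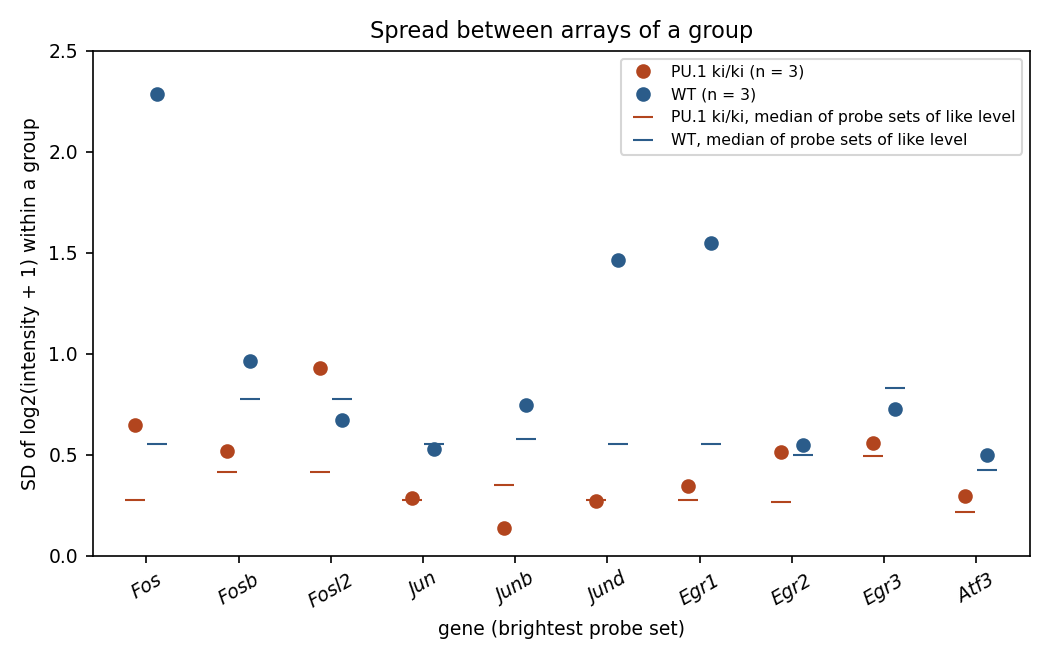
SD of log2(intensity + 1) over the 3 arrays of a group (circles, PU.1 ki/ki in red at left, WT in blue at right) for the brightest probe set of each gene, with dashes for the median SD of all probe sets of like level in the same group. The WT values of Fos (2.28), Egr1 (1.55) and Jund (1.46) lie above their dash at 0.55.

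Genes with the array profile nearest to those of Fos, Jun and Egr1 were found by the root mean square difference of log2 levels over the 6 arrays, each gene centred on its mean, among 10987 other genes with a mean at or above the median of all probe sets. Near to Fos were 4833420G17Rik (0.25) and Tm2d1 (0.26). Nearest to Egr1 were Extl2, a glycosyltransferase (0.16), Sbf1, a myotubularin relative (0.18), and Wwtr1, the Hippo effector TAZ (0.20), and nearest to Jun were Rnf215 (0.06), Zbtb11os1 (0.09) and Taf5l (0.11). None of these 8 is a member of AP-1 or the Egr family. Fos and Egr1 differed from each other by 0.91, and 6.29% of the genes compared were nearer to Fos than Egr1 was.

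The lists of related genes came next, first the other members of these families and their partners. Of 16 fixed by symbol 15 were measured, 8 with a positive and 7 with a negative difference (median 0.02), and 0 passed the test, with 0 at an unadjusted p under 0.05 against 8.66% of all genes. Nab2, a corepressor of Egr proteins that is itself an Egr target, had no overlap between groups, at 92, 72 and 33 in PU.1 ki/ki and 110, 113 and 100 in WT (-0.82 ± 0.40, adjusted p = 0.650). It was 1 of 15 without overlap, against 12.8% of all genes. Mafk, a small Maf protein, read 374, 203 and 199 in PU.1 ki/ki and 247, 470 and 541 in WT (-0.68, adjusted p = 0.687). Atf2, a constitutive Jun partner, read 1746, 1702 and 1095 in PU.1 ki/ki and 1112, 160 and 812 in WT (1.49, adjusted p = 0.661, and 0.64 without WT replicate 2). The 4 remaining probe sets of Atf2 were higher in PU.1 ki/ki too. Fosl1, encoding Fra-1, read 77, 66 and 41 in PU.1 ki/ki and 60, 30 and 24 in WT (0.74, adjusted p = 0.677), and its second, dim probe set differed by -0.01.

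Of 50 immediate early genes outside AP-1 and Egr 0 passed the test (lowest adjusted p 0.4305), with values apart between groups in both directions for some. Of the 50, 32 had a positive and 18 a negative difference (median 0.29), and at an unadjusted p under 0.05 there were 4 higher and 5 lower, against 4.39% and 4.27% of all genes. Without overlap were 7 higher and 6 lower (26%, against 12.8% of all genes). With WT replicates 2 and 3 left out, 32 of 50 (64%) lay apart from WT replicate 1, against 54% of all genes. In that setting the median difference was 0.08. It was 0.05 without WT replicate 3 alone and 0.12 after a further quantile normalization, so the size of the median depended on that array and on scaling.

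Of the higher genes, Myc, a driver of growth, read 3482, 3084 and 3553 in PU.1 ki/ki and 1668, 2115 and 1867 in WT (0.84 ± 0.15, adjusted p = 0.430). All PU.1 ki/ki values lay above all WT values with little spread in either group. Tnfaip3, which encodes the NF-kappaB inhibitor A20, read 232, 172 and 111 in PU.1 ki/ki and 23, 39 and 64 in WT (2.06 ± 0.47, adjusted p = 0.482), and its dimmer probe set differed by 0.44 with overlap. Nfkbia, which encodes the NF-kappaB inhibitor IkappaB-alpha and was named after its values were seen, read 2204, 2806 and 2989 in PU.1 ki/ki and 1711, 1576 and 1602 in WT (0.70 ± 0.16, adjusted p = 0.482). Its 4 other probe sets differed by 1.38 and 0.45 without overlap and by -0.28 and -0.14 with overlap, and the mean of all 5 by 0.42. Both genes are themselves NF-kappaB targets. The others higher without overlap, named in the same way, were Nfkbiz (1.41, with 27 on WT replicate 2, and 0.21 without that array, and other probe sets at 1.38 and 0.50), Nr4a3 (0.95), Arc (0.63) and Per1 (0.48).

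Of the lower genes, the C/EBP factors Cebpd and Cebpb, induced in acute phase and myeloid responses, had the lowest p. Cebpd read 108, 167 and 107 in PU.1 ki/ki and 481, 346 and 261 in WT (-1.49 ± 0.31, adjusted p = 0.463). Cebpb read 172, 97 and 134 in PU.1 ki/ki and 229, 485 and 323 in WT (-1.33 ± 0.36, adjusted p = 0.509). In both, every PU.1 ki/ki value lay below every WT value, while the other probe set of Cebpd differed by -0.04 and that of Cebpb by -0.62, both with overlap. The others, again named after their values were seen, were Dusp4, a nuclear phosphatase of ERK, at 75, 69 and 73 in PU.1 ki/ki and 343, 152 and 886 in WT (-2.30), Socs3 (-3.10, with 820 on WT replicate 1, and -1.90 without it), Nr4a1 (-0.95) and Ier5l (-0.62). The other probe sets of Socs3 differed by -1.98 and -1.02 and that of Ier5l by -0.21, all with overlap. Nr4a1 and Nr4a3 are related orphan receptors that restrain HSC division in mice. Both were dim, with Nr4a1 at 27, 31 and 41 in PU.1 ki/ki and 43, 70 and 86 in WT, and Nr4a3 at 74, 64 and 90 in PU.1 ki/ki and 59, 33 and 29 in WT. The sign of Nr4a3 depended on the probe set, since its 2 others differed by -0.18 each, and the mean of all 3 by 0.20.

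Kinases and factors upstream of Fos and Egr1 were measured for 20 of 24 genes, with 13 higher and 7 lower (median difference 0.20) and 0 passing. At an unadjusted p under 0.05 there were 2 higher (against 4.39% of all genes) and 0 lower (against 4.27%). Without overlap were 3 higher (against 6.44% of all genes) and 0 lower (against 6.36%). Mapk8, the kinase JNK1 that phosphorylates Jun, read 136, 183 and 149 in PU.1 ki/ki and 77, 21 and 16 in WT (2.34 ± 0.62, adjusted p = 0.508). The low values were on WT replicates 2 and 3, and of its 4 other probe sets 1 differed by 1.53, 2 by -0.03 and 0.00, and 1 by -0.64. Elk3, an ETS partner of serum response factor, read 901, 901 and 699 in PU.1 ki/ki and 255, 161 and 590 in WT (1.51 ± 0.51, adjusted p = 0.566), and its other probe sets differed by 1.77, 0.85 and -0.07. Srf itself read 196, 351 and 265 in PU.1 ki/ki and 708, 711 and 188 in WT (-0.79, adjusted p = 0.741), and its coactivator Mrtfa 393, 164 and 237 in PU.1 ki/ki and 297, 469 and 251 in WT (-0.40, adjusted p = 0.795). The third gene without overlap was the ERK kinase gene Map2k1 (1.00), named after its values were seen.

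Heat shock genes, which respond to stress on cells during preparation, were counted in the same way. Of 15 measured of 17, 10 were higher and 5 lower (median difference 0.04), with 0 passing. At an unadjusted p under 0.05 there were 0, against 8.66% of all genes, and without overlap 0, against 12.8%. A list of 15 is too short to set 0 apart from these shares. Hspa1b, the inducible Hsp70, read 32, 34 and 20 in PU.1 ki/ki and 463, 18 and 39 in WT (-1.29, and 0.07 without WT replicate 1). It was therefore high on a single array, WT replicate 1, on which Fosb was also at its highest (751) while Fos and Egr1 were not. Its other probe sets, at 151 and 29 on WT replicate 1, differed by -0.23 and -0.13. The part of cell preparation in the members' values was not tested. The summed intensity of the list was also highest on that array, at 44503, against 29826 to 39668 on the others. Hspd1, the mitochondrial chaperonin, differed by -0.22 (adjusted p = 0.784), and the cytosolic chaperone genes Hsp90aa1 and Dnaja1 by 0.45 and 0.34 (adjusted p = 0.778 and 0.788), with -0.29 and -0.26 against WT replicate 1 alone. Signs were mixed among their other probe sets, at -0.39 to 0.28 for Hsp90aa1 and at 0.52 and -0.15 for Dnaja1.

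**Figure D5:**
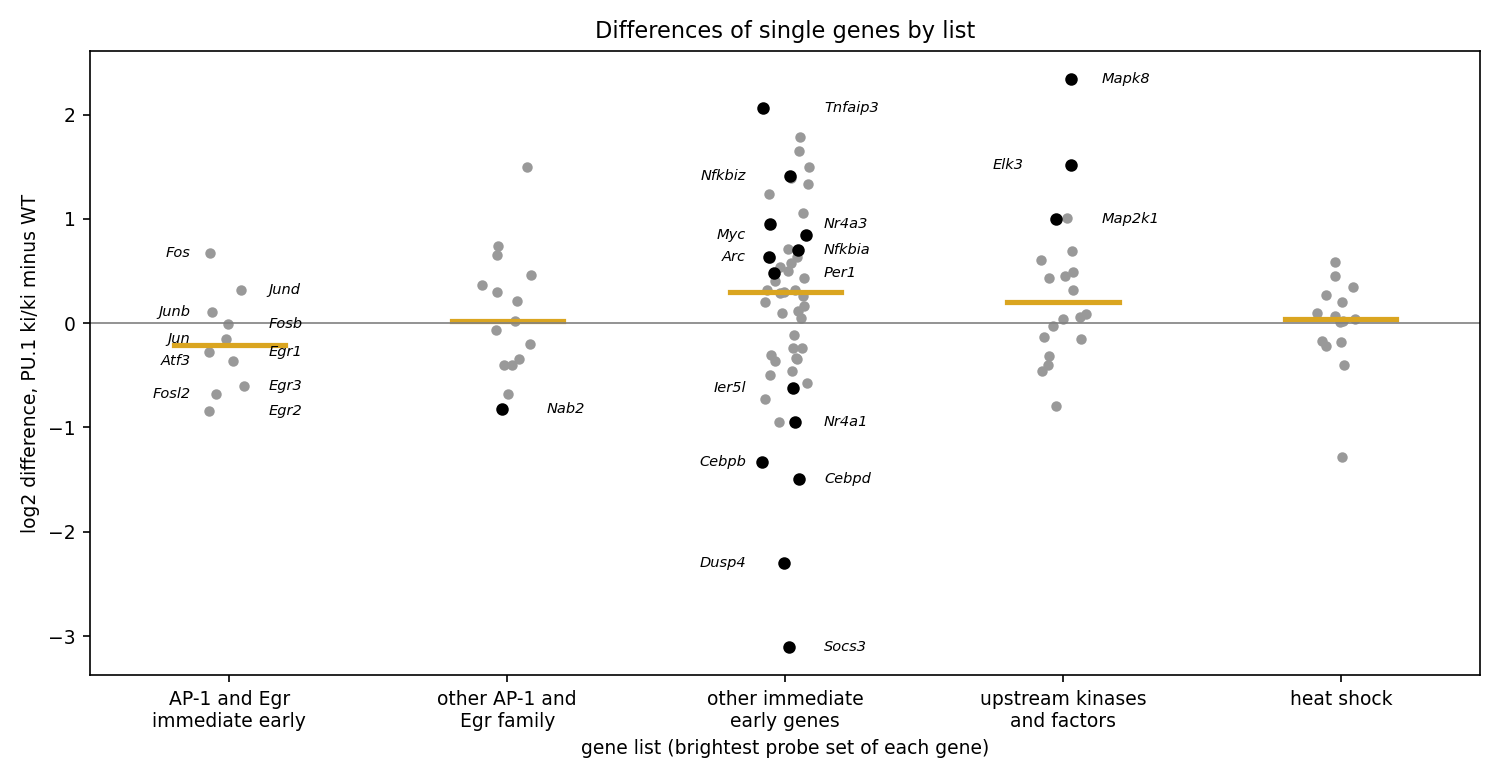
Log2 difference of PU.1 ki/ki minus WT for the brightest probe set of each gene in 5 lists. Black points are genes whose groups did not overlap, grey points the others, yellow lines the medians (-0.21, 0.02, 0.29, 0.20 and 0.04 from left to right), and names are given for the members and for the genes without overlap.

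The cells were checked against markers of their gate and of other blood cells, and 0 of these markers passed the test. Of 15 HSC genes 13 were measured, 10 with a positive and 3 with a negative difference (median 0.61), and 0 of the 13 were below 100 on all arrays. Without overlap were 2 of the 13 (15.4%, against 12.8% of all genes). These were Cd34, a sialomucin of progenitors, at 1152, 583 and 1196 in PU.1 ki/ki and 98, 64 and 200 in WT (3.09, adjusted p = 0.430), and Tek, an angiopoietin receptor, at 722, 730 and 523 in PU.1 ki/ki and 321, 341 and 291 in WT (1.04, adjusted p = 0.430). Slamf1, which encodes CD150 of the gate, read 696, 1525 and 170 in PU.1 ki/ki and 440, 54 and 42 in WT, low on WT replicates 2 and 3. Kit, also of the gate, read 617, 452 and 1368 in PU.1 ki/ki and 374, 1622 and 1001 in WT. Cd48, which the gate excludes, read 230, 90 and 290 in PU.1 ki/ki and 704, 193 and 75 in WT.

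Neutrophil genes were bright, with summed intensities of 14583 to 21194 in PU.1 ki/ki and 18622 to 25315 in WT over 8 of 10 genes. All 8 had a negative difference, and 1, S100a8, had no overlap (12.5%, against 12.8% of all genes). Of monocyte and macrophage genes 9 of 10 were measured, 7 with a positive and 2 with a negative difference (median 0.38). Their sums were 5206 to 6316 in PU.1 ki/ki and 4460 to 6151 in WT, of which Lyz2 alone gave 4181 to 4759 in PU.1 ki/ki and 4169 to 5457 in WT. The complement genes C1qb and C1qc had no overlap (22.2% of the 9, against 12.8% of all genes). C1qb was at 567, 119 and 73 in PU.1 ki/ki and 10 on every WT array, and C1qc at 226, 54 and 41 in PU.1 ki/ki and 13, 35 and 29 in WT. Their relative C1qa was dim and overlapped, at 39, 47 and 19 in PU.1 ki/ki and 33, 26 and 18 in WT (0.38). The 2 lower genes were Cd14 (-0.41, at 31 or less on all arrays) and Lyz2 (-0.06). Csf1r and Cd68 differed by 1.34 and 0.72 with overlap, and Adgre1 and Itgam were at 25 or less on all arrays. On WT replicates 1, 2 and 3 the monocyte sums were 4856, 6151 and 4460, over a 1.38-fold range, and the neutrophil sums were 25315, 22395 and 18622.

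Of 6 erythroid genes measured 2 had a positive and 4 a negative difference, and 2 were without overlap (33.3%, against 12.8% of all genes). Of these, Klf1, an erythroid transcription factor, read 118, 123 and 159 in PU.1 ki/ki and 42, 21 and 11 in WT. Hba-a1 went in the other direction (-0.69). The erythroid sums were 427 to 956 in PU.1 ki/ki and 530, 328 and 1526 on WT replicates 1, 2 and 3. Of 7 megakaryocyte genes 5 had a positive difference and 2, Selp (-0.89) and Gp9 (-0.45), a negative one. Vwf, von Willebrand factor, read 815, 1435 and 1357 in PU.1 ki/ki and 617, 490 and 298 in WT. It was the only megakaryocyte gene without overlap (14.3%, against 12.8% of all genes). Of 7 B cell genes 6 and of 10 T and NK cell genes 7 had a negative difference. Without overlap were Cd79a (-0.44) of the B cell genes (14.3%) and Cd3e (-1.25) of the T and NK cell genes (10%), against 12.8% of all genes. B cell sums were 386 to 471 in PU.1 ki/ki and 349, 500 and 871 on WT replicates 1, 2 and 3, while those of T and NK cell genes were 561, 473 and 441 in PU.1 ki/ki and 848, 658 and 589 in WT. Of 8 endothelial genes 3 had a positive and 5 a negative difference, and 0 were without overlap (against 12.8% of all genes). Marker genes named here beyond those of the gate were named after their values were seen. The part of other cells in the members' values was not tested.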

How the data were processed

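RNA of PU.1 ki/ki and WT HSCs (3 arrays each) was analysed from the deposited series table, whose values are deposited intensities. The authors made them by RMA according to the submitters' processing notes, which name no version. RMA usually gives log2 values; these were whole numbers with a minimum of 10, and the step to a linear scale is not given in the sources used here. Groups and replicate numbers came from the sample titles, and a free-text description of embryos was set aside. Of 45101 entries 64 control probe sets were left out, and 0 columns were unused. Array medians were 41 to 46. The number of arrays limits the precision.

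Symbols came from the platform annotation, with 34945 probe sets carrying 1 symbol, 932 several and 9160 none listed. The brightest probe set of a gene was that with the highest mean over all arrays. The test was limma 3.58.1 (R 4.3.3; lmFit and eBayes) on log2(intensity + 1), which understates differences of dim probe sets, with genotype as the only term and Benjamini-Hochberg adjustment over 45037 probe sets. The members and lists were chosen with earlier results of these data known. Beside the members, 169 of 186 list entries were matched to a symbol. Named were all members, the 2 higher and 2 lower genes of lowest p per pathway list, the 3 profiles nearest to Fos, Jun and Egr1 (1 of those nearest to Fos is not reported here), Spi1, and markers as needed. Simulated data of 45037 probe sets at the observed spread gave 0 of 100 calls for a 2-fold and 0 of 100 for a 4-fold change. At 0.1 of that spread, 95 and 99 were called. Same-numbered samples did not deviate together (r of -0.0168 to 0.0207), so they were not paired. Figures were drawn with matplotlib 3.10.9.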

Additional observations from a re-analysis of the deposited data

How the results depend on the processing

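Over 16 other settings, 0 of the 10 members passed adjustment (lowest adjusted p 0.2616, and 0.2027 over all 15 probe sets), and the median difference of the 10 members stayed negative, at -0.52 to -0.06. The 16 were a further quantile normalization, array median centring, no dim probe sets, 2 other pseudocounts, another variance prior, array weights, a replicate block, each array left out, WT replicates 2 and 3 left out together (where the lone WT array is assumed to vary like the others), and the mean of all probe sets of a gene. Centring moved the median of all probe sets to -0.11 from 0.002. Samples shared only a number, and with the replicate block the median difference of the members was -0.21 with 0 called. Over all probe sets, 3369 then had an unadjusted p under 0.05, against 3731 without it. With single arrays left out, 0 to 2 member probe sets had an unadjusted p under 0.05.

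Of the brightest probe sets, those of Fosl2, Egr2, Egr3 and Atf3 kept their sign in every setting that gave a value, and those of the other 6 members did not. With single arrays left out the differences spanned -0.59 to 1.63 for Fos, -0.51 to 0.44 for Fosb, -0.37 to 0.14 for Jun, -0.15 to 0.54 for Junb, -0.52 to 0.85 for Jund, -0.92 to 0.58 for Egr1 and -2.23 to 0.070 for Hspa1b. For second probe sets they spanned -0.12 to 0.14 (Fosl2), -0.19 to 0.16 (Egr2) and -0.26 to 0.015 (Egr3). With WT replicates 2 and 3 left out, reversed differences were 0.30 (Jun), -0.27 (Jund), 0.16 (Egr1), -0.016 (Fosl1), 0.0015 (Mafk), -0.29 (Hsp90aa1) and -0.26 (Dnaja1), and for second probe sets 0.22 (Fosl2), 0.10 (Egr2), 0.23 (Egr3) and 0.16 (Jund). Also reversed were Junb under centring (-0.00022), the second probe set of Fosl2 under array weights (0.042), and Jun (0.16) and Jund (-0.14) as the mean of their probe sets. The cause was not tested.

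The median of the other immediate early genes was 0.12 after quantile normalization, 0.081 with WT replicates 2 and 3 left out, and 0.046 to 0.35 with single arrays left out, and their count without overlap was 32 of 50 and 14 to 28 of 50 in the last 2 settings, against 54% and 19.1 to 31.8% of all genes, since fewer arrays make separation easier. The heat shock median was -0.29 with both WT arrays left out. That of the other AP-1 and Egr family was -0.068 to 0.42 with single arrays left out, highest without WT replicate 3. With 6 of 15 probe sets at 100 or below, dim members set no firm sizes.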

Other observations

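Values of 4 further immediate early genes, named after they were seen, are given beside those of Fos. Zfp36, which encodes the mRNA-destabilising protein tristetraprolin, read 2123, 1568 and 2344 in PU.1 ki/ki and 1296, 3415 and 472 in WT HSCs, with the same high and low array as Fos. Klf2, a quiescence factor of lymphocytes, read 83, 254 and 169 in PU.1 ki/ki and 44, 599 and 57 in WT, highest on WT replicate 2 and lowest on replicate 1. Zfp36l2, a relative of Zfp36 that restrains cycling in lymphocyte precursors, read 3891, 3953 and 3668 in PU.1 ki/ki and 3502, 3784 and 189 in WT, with 5 arrays at one level. Dusp1, a phosphatase of stress kinases that is induced with Fos, read 691, 1116 and 1019 in PU.1 ki/ki and 941, 966 and 348 in WT, lowest on WT replicate 3. The groups overlapped in all 4 genes, and 0 passed adjustment.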
